A study of Rattus norvegicus with 12 samples.

Results

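The AP-1 transcription factors are dimers of basic leucine zipper proteins, and the genes of 9 such subunits were followed here in a rapamycin-sensitive and a rapamycin-resistant rat tumour cell line. The subunits were the Jun proteins (Jun, Junb, Jund), the Fos proteins (Fos, Fosb, Fosl1, Fosl2) and the related proteins Atf3 and Maff. They were chosen by name, as the probe sets whose symbol in the array annotation is one of these 9, and each symbol had 1 probe set, so the members were 9 of 23188 probe sets, of which 15049 carry a symbol. RNA was measured on rat Clariom S arrays. ELT3 is a Tsc2-null (tuberin-null) line from a uterine leiomyoma of an Eker rat. ELT3-245 was grown from an ELT3 xenograft in a CB17/SCID mouse, from the 1 tumour that resisted rapamycin, so it is a single derivative line from a single tumour. Each line was treated either with DMSO, the solvent, or with 20 nM rapamycin, an inhibitor of the kinase complex mTORC1, over 24 hours; each of these 4 groups has 3 replicates, 12 arrays in total. All 4 groups share the Tsc2-null background.

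In AP-1, a Jun protein pairs with another Jun protein or with a Fos protein, while Fos proteins need a Jun partner to bind DNA. Jun is a strong activator, Junb activates fewer targets and can oppose Jun, and Jund is in most cells the steadily expressed Jun. Fos and Fosb carry activation domains that Fosl1 (Fra-1) and Fosl2 (Fra-2) lack. Atf3 is a stress-induced member that represses many of its targets, and Maff is a small Maf protein without an activation domain. Many of these genes are immediate early genes, switched on within minutes by MAP kinase signalling through SRF and its partners, with RNAs that are degraded quickly, and in the rat uterus oestrogen is known to induce Fos and Jun. Arrays report RNA, not protein, phosphorylation or binding to DNA.

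The stretches before the start sites of Junb, Maff and Jund are shown because the first 2 of these genes moved together under rapamycin in both lines while the response of the third differed between the lines. They are the 250 bases before the start in RefSeq (GRCr8), and the table of start sites matched 6 of the 9 members (Fosb, Fosl1, Fosl2, Junb, Jund and Maff). Capitals mark the cAMP response element (TGACGTCA, searched on both strands), which AP-1 dimers with an ATF partner can bind, and the TATA box (TATAA, sense strand only). The windows are Junb at chr19:40080876-40081125 on the + strand, Maff at chr7:112792537-112792786 on the + strand and Jund at chr16:18769772-18770021 on the - strand.
Junb: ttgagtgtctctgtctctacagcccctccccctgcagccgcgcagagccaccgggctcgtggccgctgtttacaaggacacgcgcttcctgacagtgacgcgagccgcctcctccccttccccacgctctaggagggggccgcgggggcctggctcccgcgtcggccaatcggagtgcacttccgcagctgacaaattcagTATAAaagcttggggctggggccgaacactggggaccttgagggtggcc
Maff: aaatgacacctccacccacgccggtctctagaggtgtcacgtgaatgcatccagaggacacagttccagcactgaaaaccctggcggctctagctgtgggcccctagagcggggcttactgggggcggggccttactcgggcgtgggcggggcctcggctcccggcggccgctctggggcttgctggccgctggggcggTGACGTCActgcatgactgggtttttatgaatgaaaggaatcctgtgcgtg
Jund: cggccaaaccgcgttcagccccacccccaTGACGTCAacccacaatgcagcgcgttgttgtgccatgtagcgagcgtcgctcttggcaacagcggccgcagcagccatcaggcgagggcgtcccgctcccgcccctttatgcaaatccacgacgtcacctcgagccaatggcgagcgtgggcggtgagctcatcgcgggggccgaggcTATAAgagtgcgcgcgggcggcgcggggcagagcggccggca

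Maff held a cAMP response element at bases 51 to 44 before its start and Jund held one at bases 221 to 214, against 1.59% of 33469 windows of the same length. Junb held a TATA box at bases 49 to 45 and Jund at bases 42 to 38, against 16.7% of windows. The windows of Fosb, Fosl1 and Fosl2, which are not shown, held neither motif. Fosl1 was the other member whose response differed between the lines. The AP-1 site itself (TGACTCA or TGAGTCA, both strands, in 4.05% of windows) and the CArG box (both strands, in 1.5% of windows), to which SRF binds, matched in none of the 6 members' windows. No overlap between the marked motifs occurred in these 3 windows. These matches describe letters in the windows only.

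The deposited values were log2 signals, so a difference of 1 is a doubling. The medians of the 12 arrays lay between 6.69 and 6.82, and the correlation between arrays of a group, taken over probe sets that are themselves related, was 0.9928 to 0.9966. Of 9 smooth muscle markers, 5 (Acta2, Tagln, Des, Smtn and Pgr) had group means above the median probe set, at 6.78, in all 4 groups, while Myh11 (4.49 to 4.91) and Myocd (5.51 to 6.20) lay below it in all 4, and Cnn1 (5.71 to 6.98) and Esr1 (6.67 to 7.13) lay on both sides of it. Tsc2 RNA was detected by its probe set at means of 9.54 and 10.57 in ELT3 and 9.58 and 9.99 in ELT3-245, in DMSO and rapamycin respectively; the signal of this probe set is no check of the Tsc2-null label. The third ELT3 array in rapamycin stood apart from its replicates, with the lowest weight in a fit that weights arrays (0.436, against 0.754 to 1.65 for the other 11), and it was the lowest of its group for Jun, Junb, Jund, Fos and Fosl2.

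**Figure D1:**
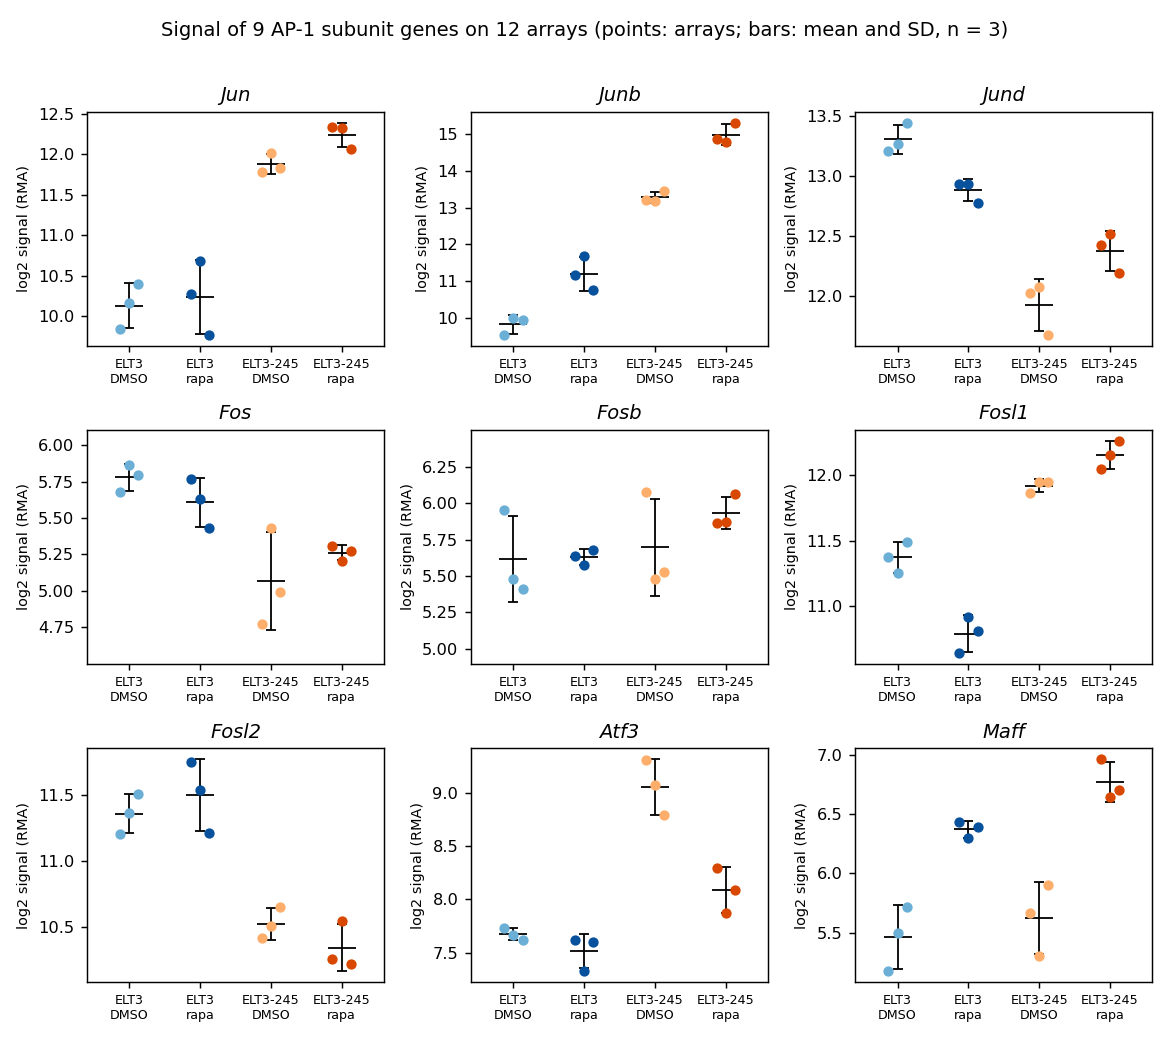
Log2 signal (y axis, RMA) of the 9 AP-1 subunit genes in the 4 groups (x axis), with points for single arrays and bars for the mean and SD (n = 3); the y axes differ between panels. Junb climbs through all 4 groups, from a mean of 9.83 to 14.97, while Fosb stays between 5.62 and 5.93.

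Of the 9 members, 6 had an overall mean signal above the median of all probe sets and 3 (Fos, Fosb and Maff) below it, at the 33.6th, 38.3rd and 43.1st percentile. Here a probe set is called different where its change reaches 1.5-fold and its p, adjusted by Benjamini-Hochberg for 23188 tests, is under 0.05 in limma, a linear model that shares its estimate of the spread among probe sets. RNA came from whole cultures, in which fewer expressing cells and less RNA per cell cannot be told apart. Nothing in the labels says that replicates were separate cultures, so the p-values measure the spread between these samples, which may be technical.

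Junb, the Jun protein with the largest differences, was in ELT3 at 9.55, 10.00 and 9.95 in DMSO and at 11.17, 11.67 and 10.76 in rapamycin. In ELT3-245 it was at 13.20, 13.19 and 13.44 in DMSO and at 14.85, 14.77 and 15.3 in rapamycin. No group overlapped another: the lowest ELT3-245 array lay above the highest ELT3 array, and within each line rapamycin arrays lay above DMSO arrays. Junb was higher in ELT3-245 by 3.44 ± 0.22 (SE) on the log2 scale in DMSO (10.9-fold, adjusted p = 1.61e-07) and by 3.77 ± 0.22 in rapamycin (13.6-fold, adjusted p = 6.68e-08). Rapamycin raised it by 1.37 ± 0.22 in ELT3 (2.59-fold, adjusted p = 0.000614) and by 1.70 ± 0.22 in ELT3-245 (3.24-fold, adjusted p = 0.00022). The responses differed by 0.33 (95% interval -0.35 to 1.01, adjusted p = 0.625), which was not called. Each neighbouring pair in the order ELT3 in DMSO, ELT3 in rapamycin, ELT3-245 in DMSO, ELT3-245 in rapamycin was called different, and from the first to the last of these groups the rise was 5.14 ± 0.22 (35.3-fold, adjusted p = 3.25e-09). Junb is the only member for which all 3 neighbouring pairs were called.

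Jun, the classical partner of the Fos proteins, was in ELT3 at 9.84, 10.16 and 10.39 in DMSO and at 10.28, 10.68 and 9.77 in rapamycin. ELT3-245 had it at 11.78, 12.02 and 11.84 in DMSO and at 12.33, 12.32 and 12.07 in rapamycin. The lines did not overlap, while within ELT3 the treatments did. Jun was higher in ELT3-245 by 1.75 ± 0.21 in DMSO (3.35-fold, adjusted p = 4.91e-05) and by 2.0 ± 0.21 in rapamycin (3.99-fold, adjusted p = 1.44e-05). Its rapamycin responses were 0.11 (95% interval -0.34 to 0.57, adjusted p = 0.757) in ELT3 and 0.36 (95% interval -0.09 to 0.82, adjusted p = 0.294) in ELT3-245, and neither was called. In the order of its levels only the step between the lines was called.

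Jund, the Jun protein most cells hold at a steady level, had the opposite order of lines. In ELT3 it was at 13.21, 13.26 and 13.44 in DMSO and at 12.93, 12.93 and 12.78 in rapamycin. In ELT3-245 the DMSO arrays stood at 12.02, 12.07 and 11.67, the rapamycin arrays at 12.42, 12.51 and 12.19. Every ELT3 array lay above every ELT3-245 array, and rapamycin arrays lay below DMSO arrays in ELT3 but above them in ELT3-245. Jund was lower in ELT3-245 in DMSO, by 1.38 ± 0.13 on the log2 scale (2.61-fold, adjusted p = 7.94e-06), and the difference in rapamycin was -0.51 ± 0.13 (1.42-fold, adjusted p = 0.0151), under the fold threshold. The response was -0.42 ± 0.13 in ELT3 (1.34-fold, adjusted p = 0.0367) and 0.45 ± 0.13 in ELT3-245 (1.37-fold, adjusted p = 0.0352), each under the fold threshold, and the difference between them, 0.88 ± 0.19 (1.84-fold, adjusted p = 0.0252), was called. The call of this difference was lost on leaving out any 1 of 6 of the 12 arrays (ELT3 in DMSO replicates 2 and 3, ELT3 in rapamycin replicate 3, ELT3-245 in DMSO replicate 3, ELT3-245 in rapamycin replicates 1 and 2), with adjusted p from 0.0511 to 0.065 and a difference of 0.75 to 0.90 in those fits.

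Fosl1, which encodes Fra-1 and is itself a known target of AP-1, was in ELT3 at 11.38, 11.25 and 11.49 in DMSO and at 10.64, 10.92 and 10.81 in rapamycin. The ELT3-245 arrays gave 11.87, 11.95 and 11.95 in DMSO and 12.05, 12.15 and 12.26 in rapamycin. The 4 groups did not overlap. The gap between the lines was 0.55 ± 0.11 in DMSO (1.46-fold, adjusted p = 0.00354, under the fold threshold) and 1.36 ± 0.11 in rapamycin (2.57-fold, adjusted p = 1.69e-06), where Fosl1 was called higher in ELT3-245. The response was -0.58 ± 0.11 in ELT3, where the fold of 1.498 missed the threshold at an adjusted p of 0.00215, and 0.23 ± 0.11 in ELT3-245 (adjusted p = 0.2). The difference between the responses, 0.82 ± 0.16 (1.76-fold, adjusted p = 0.0153), was called and stayed called on leaving out each of the 12 arrays (adjusted p from 0.0205 to 0.0431). Leaving out ELT3 in DMSO replicate 2, or replicate 2 or 3 of ELT3 in rapamycin, carried the ELT3 response over the fold threshold (-0.64, -0.65 and -0.59), and leaving out ELT3 in DMSO replicate 3 did so for the line gap in DMSO (0.61).

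Fosl2, which encodes Fra-2, was in ELT3 at 11.21, 11.37 and 11.51 in DMSO and at 11.76, 11.54 and 11.22 in rapamycin. In ELT3-245 it was at 10.41, 10.50 and 10.65 in DMSO and at 10.26, 10.54 and 10.22 in rapamycin. The lines did not overlap and the treatments did, in both lines. Fosl2 was lower in ELT3-245 in DMSO, by 0.84 ± 0.15 on the log2 scale (1.79-fold, adjusted p = 0.00145), and in rapamycin, by 1.16 ± 0.15 (2.24-fold, adjusted p = 9.94e-05). Its responses were 0.14 (95% interval -0.19 to 0.48) in ELT3 and -0.18 (95% interval -0.51 to 0.15) in ELT3-245, neither of them called (adjusted p = 0.556 and 0.504). Fosl1 and Fosl2, the Fra proteins, lay on opposite sides of ELT3 in rapamycin.

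Fos, a dim member here, was in ELT3 at 5.68, 5.86 and 5.80 in DMSO and at 5.77, 5.63 and 5.43 in rapamycin. ELT3-245 gave 4.78, 5.43 and 4.99 without rapamycin, and 5.31, 5.20 and 5.28 with it. Within each treatment the lines did not overlap, but the SD of ELT3-245 in DMSO, 0.33, was the widest of the 4 groups. Fos was lower in ELT3-245 in DMSO, by 0.71 ± 0.16 on the log2 scale (1.64-fold, adjusted p = 0.00533), and this call was lost without ELT3-245 in DMSO replicate 1 (-0.57, 1.48-fold). The gap in rapamycin was -0.35 ± 0.16 (adjusted p = 0.138), and the responses were -0.17 (95% interval -0.51 to 0.17) in ELT3 and 0.20 (95% interval -0.14 to 0.53) in ELT3-245.

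Fosb, whose protein also occurs as a short form without the activation domain, was in ELT3 at 5.95, 5.48 and 5.41 in DMSO and at 5.64, 5.58 and 5.68 in rapamycin. In ELT3-245 it was at 6.08, 5.48 and 5.53 in DMSO and at 5.87, 5.87 and 6.06 in rapamycin. It is the 1 member that was called in none of the 5 comparisons. Its differences ran from 0.02 (rapamycin in ELT3) to 0.30 (the lines in rapamycin, 95% interval -0.08 to 0.68, adjusted p = 0.264).

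Atf3, the stress-induced member, was in ELT3 at 7.73, 7.67 and 7.62 in DMSO and at 7.61, 7.33 and 7.60 in rapamycin. The ELT3-245 arrays stood at 9.31, 9.07 and 8.79 without rapamycin, and at 8.30, 7.87 and 8.09 with it. All ELT3-245 arrays lay above all ELT3 arrays. In ELT3-245 the rapamycin arrays lay below the DMSO arrays (highest 8.299, lowest 8.788). In ELT3 they did so only barely (7.614 against 7.618). Atf3 was higher in ELT3-245 in DMSO by 1.39 ± 0.15 (2.61-fold, adjusted p = 2.42e-05), and it fell with rapamycin in ELT3-245, by 0.97 ± 0.15 on the log2 scale (1.96-fold, adjusted p = 0.00088). The response of ELT3 was -0.16 (95% interval -0.49 to 0.17, adjusted p = 0.514), and the difference between the responses, -0.81 ± 0.22 (1.75-fold), had an adjusted p of 0.0583 and was not called. Under rapamycin the gap between the lines was 0.57 ± 0.15 (1.49-fold, adjusted p = 0.015), under the fold threshold. This gap passed it without ELT3 in rapamycin replicate 1 (0.63) or 3 (0.62) or ELT3-245 in rapamycin replicate 2 (0.68), and the difference between the responses was called without ELT3-245 in DMSO replicate 3 (-0.95, adjusted p = 0.0368).

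Maff, the small Maf protein, was in ELT3 at 5.18, 5.50 and 5.72 in DMSO and at 6.43, 6.29 and 6.39 in rapamycin. In ELT3-245 it was at 5.66, 5.30 and 5.90 in DMSO and at 6.96, 6.64 and 6.699 in rapamycin. In each line the rapamycin arrays lay above the DMSO arrays, and in DMSO the lines overlapped. Rapamycin raised Maff by 0.91 ± 0.17 in ELT3 (1.88-fold, adjusted p = 0.00187) and by 1.15 ± 0.17 in ELT3-245 (2.21-fold, adjusted p = 0.000618). The responses differed by 0.24 (95% interval -0.29 to 0.77, adjusted p = 0.654). The gap between the lines was 0.16 (adjusted p = 0.586) in DMSO and 0.40 (adjusted p = 0.125) in rapamycin, neither called, so in the order of its levels only the step from the DMSO groups to the rapamycin groups was called.

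The comparison of the lines in DMSO asks how the resistant line differs without rapamycin in the culture. Because that line came from a tumour of a rapamycin-treated mouse, its DMSO arrays do not show a state before any exposure. Resistance and this history cannot be told apart here. Junb, Jun and Atf3 were higher in ELT3-245 and Jund, Fosl2 and Fos were lower, while Fosl1, Fosb and Maff were not called. That is 6 of 9 members (3 higher, 3 lower), where 14.9% of all probe sets were called (7.3% higher, 7.56% lower). The median size of the members' differences was 0.84, against 0.23 over all probe sets, and their median signed difference was 0.16, against 0.01. The sizes of the called differences ran from 1.64-fold for Fos to 10.9-fold for Junb.

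In rapamycin, Junb, Jun and Fosl1 were higher in ELT3-245 and Fosl2 was lower. That is 4 of 9 members (3 higher, 1 lower), where 16.8% of all probe sets were called (8.86% higher, 7.92% lower). The median size of the members' differences was 0.57, against 0.24 over all probe sets. Junb, Jun and Fosl2 were the 3 members called between the lines in both treatments, in the same direction. The per-gene unequal-variance test called 2 members here, Junb and Fosl1; the adjusted p was 0.0807 for Jun and 0.0551 for Fosl2.

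**Figure D2:**
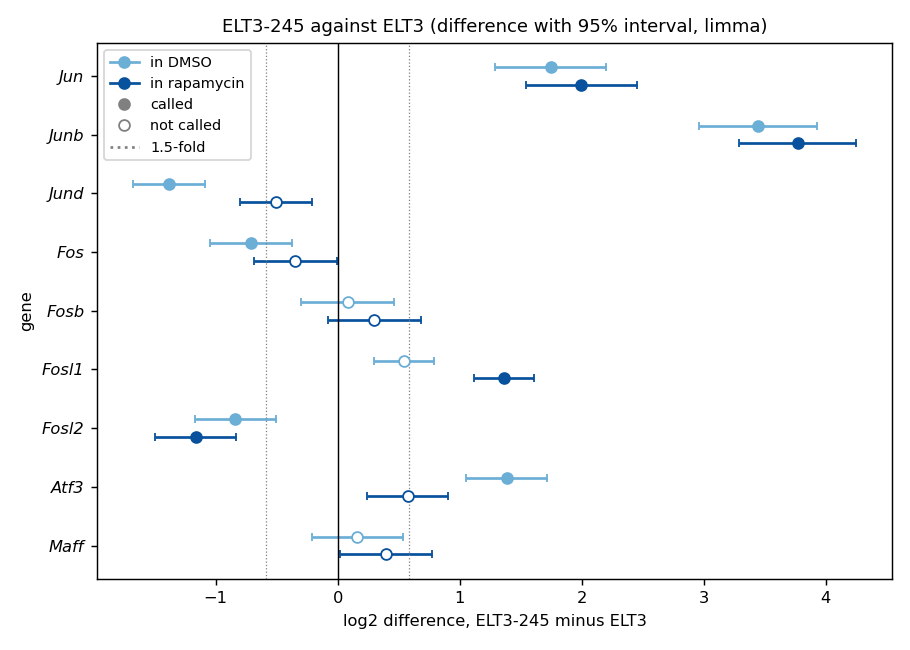
Log2 difference between ELT3-245 and ELT3 (x axis) for each member (y axis) in DMSO (light) and in rapamycin (dark), with 95% intervals, filled where called; dotted lines mark 1.5-fold. Junb lies furthest to the right in both treatments (3.44 and 3.77), and Jund and Atf3 lie closer to 0 in rapamycin than in DMSO.

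Some markers of other cell types moved with the line as well, and their part in the members' differences was not tested. Of 7 fibroblast markers 6 were called higher in ELT3-245 in each treatment, and their mean log2 signal ran from 9.47 to 9.98 in ELT3 in DMSO and from 12.95 to 13.11 in ELT3-245 in DMSO (10.09 to 10.41 and 13.31 to 13.35 in rapamycin). The mean of 7 epithelial markers ran from 7.48 to 7.55 in ELT3 in DMSO and from 5.43 to 5.63 in ELT3-245 in DMSO (8.04 to 8.16 and 5.48 to 5.62 in rapamycin), with Epcam, Krt18 and Krt19 under the median probe set in all groups. In ELT3-245, 4 of the 7 were called lower in DMSO and 3 in rapamycin, and 0 higher. The mean of 9 smooth muscle markers ran from 10.34 to 10.39 in ELT3 and from 9.85 to 10.07 in ELT3-245 in DMSO (10.96 to 11.13 and 10.44 to 10.62 in rapamycin). These 9 did not move as a set: in ELT3-245, 2 were called higher and 4 lower in DMSO. In rapamycin 0 were called higher and 4 lower, and the median differences were 0.13 in DMSO and 0.03 in rapamycin. The mean of 5 leukocyte markers ran from 5.57 to 5.89 in ELT3 and from 7.09 to 7.35 in ELT3-245 in DMSO (5.26 to 5.60 and 6.63 to 6.67 in rapamycin), although Ptprc and Itgam stood between 4.06 and 4.55 in all groups. Of these 5, 2 were called higher in DMSO and 1 in rapamycin, and 0 lower. The mean of 5 endothelial markers ran from 5.27 to 5.48 in ELT3 and from 6.33 to 6.44 in ELT3-245 in DMSO (5.18 to 5.35 and 5.92 to 6.08 in rapamycin), with Vwf at 3.44 to 3.77 and Cdh5 at 4.50 to 4.67. Nor did these 5 move as a set: in ELT3-245, 1 was called higher and 1 lower in DMSO. In rapamycin 1 was called higher and 2 lower, and the median differences were -0.20 in DMSO and -0.16 in rapamycin.

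The response of ELT3 to rapamycin asks what the drug does in the sensitive line. Junb and Maff rose, and the other 7 members were not called. That is 2 of 9 members, both higher, where 15.9% of all probe sets were called (7.47% higher, 8.45% lower). The median size of the members' responses was 0.17, under the 0.25 over all probe sets. Both calls depended on the test: the per-gene unequal-variance test gave an adjusted p of 0.109 for Junb and 0.121 for Maff, and a test against a change of 1.5-fold (limma treat) gave 0.0502 and 0.56. Without the third array in rapamycin, which stood apart, the limma responses of Junb and Maff were 1.59 and 0.90 (adjusted p = 0.000307 and 0.00714). In that fit Fosl1 was called as well, in the lower direction (-0.59, adjusted p = 0.00609).

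In ELT3-245, Junb and Maff rose and Atf3 fell. That is 3 of 9 members (2 higher, 1 lower), where 10.6% of all probe sets were called (5.65% higher, 4.98% lower), and the median size of the responses was 0.36, against 0.21 over all probe sets. Junb and Maff were the 2 members called in both lines. The per-gene unequal-variance test gave adjusted p of 0.053, 0.0903 and 0.0858 for Junb, Maff and Atf3, and limma treat kept Junb alone, with 0.126 for Maff and 0.37 for Atf3.

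**Figure D3:**
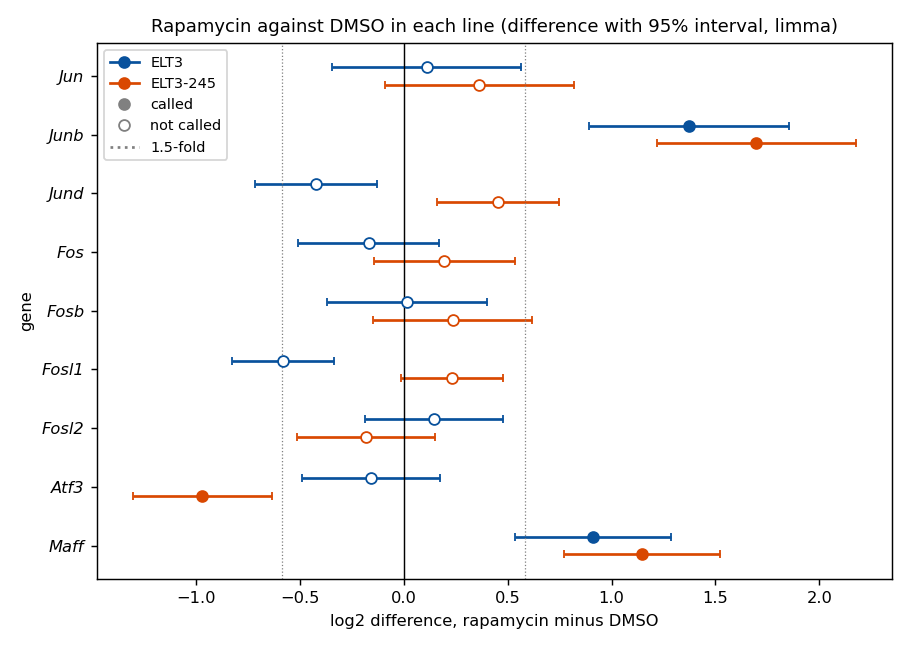
Log2 difference between rapamycin and DMSO (x axis) for each member (y axis) in ELT3 (blue) and ELT3-245 (orange), with 95% intervals, filled where called; dotted lines mark 1.5-fold. Junb and Maff lie to the right in both lines, and Jund and Fosl1 lie left of 0 in ELT3 and right of 0 in ELT3-245.

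The difference between the responses asks which genes the drug moves unequally in the lines. It was called for Jund and Fosl1, both with the more positive response in ELT3-245. That is 2 of 9 members, both in the higher direction, where 4.23% of all probe sets were called (2.17% higher, 2.06% lower), and the median size over the members was 0.33, against 0.25. The comparisons share arrays (the ELT3 arrays in DMSO stand in the line difference in DMSO, in the response of ELT3 and in this difference), so they are not independent of each other.

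For each of the 8 members called at least once, the 3 probe sets with the smallest root mean square difference from the member's 12 values, each centred on its own mean, were looked up. For Junb, whose values span 5.75, these were PCOLCE2 (0.34), Ltbp3 (0.36) and Masp1 (0.40), and for Jun, spanning 2.56, they were Pcnx1 (0.22), Steap2 (0.24) and Bcl2l11 (0.24). For Jund, spanning 1.77, they were Mpp7 (0.19), Pacc1 (0.19) and Ptk2b (0.19). For Fosl1, spanning 1.62, they were Gen1 (0.12), Il17ra (0.13) and Snrpf (0.14), and for Fosl2, spanning 1.54, Ripor1 (0.15), Ppm1k (0.16) and Mpzl1 (0.16). For Fos, spanning 1.08, they were Lsr (0.12), Rab30 (0.13) and Ppfia4 (0.13), and for Atf3, spanning 1.98, Adora2b (0.18), Appl2 (0.18) and Kdm8 (0.21). For Maff, spanning 1.79, they were Hdc (0.16), Ugcg (0.17) and Ptbp2 (0.19). No member was among the nearest probe sets of another.

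Other genes of the pathway were read from 4 textbook lists with 78 measured genes in all. The shares over all probe sets set beside their counts include dim probe sets, which were called less often than bright ones. Of 17 measured dimer partners and relatives (basic leucine zipper proteins such as Bach1, a repressor that pairs with small Maf proteins), 5 were called between the lines in DMSO, 4 higher and 1 lower (29.4%, against 14.9% of all probe sets), and 3 in rapamycin, all higher (17.6%, against 16.8%). Bach1 was higher in ELT3-245 in both treatments (1.10 and 0.89), as was Batf (1.02 and 1.08), and Ddit3 was lower in DMSO (-0.59). The other calls, named after their values were seen, were Maf (0.72) and Atf7 (0.61) in DMSO and Atf1 (0.87) in rapamycin, all higher. Atf7 missed the fold threshold without ELT3 in DMSO replicate 1 (0.48) or ELT3-245 in DMSO replicate 3 (0.53). The Batf call in DMSO was lost without ELT3 in DMSO replicate 2 or 3 or ELT3-245 in DMSO replicate 1 or 2 (adjusted p from 0.0546 to 0.0665), and the Ddit3 call without any 1 of 8 arrays (adjusted p from 0.0501 to 0.128) or with the replicate number as a block (adjusted p = 0.0527). The list's count in DMSO was 3 on leaving out any 1 of the 6 DMSO arrays, and that in rapamycin was 5 without ELT3-245 in rapamycin replicate 1. With rapamycin, Ddit3, the stress factor CHOP, fell in ELT3 (-1.14) and ELT3-245 (-1.03), and in ELT3-245 Maf fell (-0.79) while Mafk, a small Maf like Maff, rose (0.78); their values in ELT3, 0.30 and 0.43, were not called. That is 1 of 17 called in ELT3 and 3 in ELT3-245, 5.88% and 17.6%, against 15.9% and 10.6% of all probe sets. The median size of the list's differences was 0.23 and 0.20 between the lines and 0.17 and 0.20 for the responses.

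Of 19 measured upstream kinases and SRF factors, 5 were called between the lines in each treatment, 3 higher and 2 lower (26.3%, against 14.9% of all probe sets in DMSO and 16.8% in rapamycin). Map2k1 (MEK1, which activates ERK) was lower in ELT3-245 in DMSO (-0.96) and in rapamycin (-1.44), Srf was lower in DMSO (-0.63) and Map2k2 (MEK2) lower in rapamycin (-0.63). Map2k6, a kinase of the p38 pathway, was higher in DMSO (1.23), as was Rps6ka3 in both treatments (1.22 and 1.14) and Map2k3 in rapamycin (0.79). Map2k7 in DMSO (0.74) and Map2k6 in rapamycin (0.73), named after their values were seen, were also higher. The Srf call was lost without ELT3 in DMSO replicate 1 or 3 or ELT3-245 in DMSO replicate 1 or 2 (adjusted p from 0.0749 to 0.133) or with the replicate number as a block (adjusted p = 0.0581), and the Map2k2 call without ELT3 in rapamycin replicate 1 (-0.58) or ELT3-245 in rapamycin replicate 3 (-0.55). The response of ELT3 called 0 of these genes in limma, where 15.9% of all probe sets were called, with 10 at an unadjusted p under 0.05, and the per-gene unequal-variance test also called 0, with 4 at an unadjusted p under 0.05; limma called 1 without ELT3 in DMSO replicate 2 or 3. In ELT3-245 3 were called (15.8%, against 10.6% of all probe sets): Elk4, an SRF partner, rose (0.81), as did Rps6ka2 (0.76), and Map2k6 fell (-0.97). In ELT3 these 3 stood at 0.50, -0.08 and -0.47. The median size of the list's differences was 0.29 and 0.32 between the lines and 0.30 and 0.20 for the responses.

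Of 13 measured brakes on AP-1 (MAP kinase phosphatases, RNA decay factors and ubiquitin ligases), 6 rose with rapamycin in ELT3 and 7 in ELT3-245, and the others were not called in either direction. That is 46.2% and 53.8%, where 15.9% and 10.6% of all probe sets were called (7.47% and 5.65% higher). Dusp6, which switches off ERK, was in ELT3 at 12.35, 12.37 and 12.60 in DMSO and at 15.02, 15.20 and 15.02 in rapamycin, and in ELT3-245 at 12.48, 12.31 and 12.55 and at 15.07, 15.17 and 15.002. It rose by 2.64 ± 0.11 in ELT3 (6.22-fold, adjusted p = 9.34e-08) and by 2.63 ± 0.11 in ELT3-245 (6.19-fold, adjusted p = 1.84e-07). Zfp36l1, which promotes the decay of RNAs with AU-rich elements, rose by 1.89 and 1.82. Between the lines 2 of the 13 were called in each treatment (15.4%, against 14.9% and 16.8% of all probe sets). Dusp10 was higher (0.72) and Dusp8 lower (-1.22) in DMSO, and Dusp5 was higher (0.62) and Dusp4 lower (-0.70) in rapamycin. The Dusp5 call was lost without ELT3-245 in rapamycin replicate 2 (0.57) or 3 (0.55) and the Dusp4 call without ELT3 in rapamycin replicate 1 or ELT3-245 in rapamycin replicate 1 or 3 (adjusted p from 0.0695 to 0.0864), so without 1 of these arrays 0 or 1 of the brakes was called in rapamycin. The median response of the list was 0.31 in ELT3 and 0.64 in ELT3-245, against 0.02 and -0.02 over all probe sets (median sizes 0.38 and 0.64).

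Of 29 measured textbook AP-1 targets, 15 were called between the lines in DMSO (6 higher, 9 lower) and 17 in rapamycin (9 higher, 8 lower), with median sizes of 0.73 and 0.80. These are 51.7% and 58.6% of the list, against 14.9% and 16.8% of all probe sets. Plau, the urokinase gene, was higher in ELT3-245 (4.71 in DMSO, 26.3-fold, and 4.45 in rapamycin, 21.8-fold), while Ptgs2, the inducible cyclooxygenase, was lower (-4.20 and -4.28, 18.3-fold and 19.5-fold). Gja1 was higher in DMSO (1.15), Areg was higher in rapamycin (1.85), Ccl2 was lower in DMSO (-2.55) and Lif was lower in rapamycin (-1.49). Rapamycin called 10 targets in ELT3 (7 higher, 3 lower) and 14 in ELT3-245 (12 higher, 2 lower), 34.5% and 48.3% of the list, against 15.9% and 10.6% of all probe sets. The growth factor gene Hbegf rose by 2.35 in ELT3 and 1.69 in ELT3-245, Ptgs2 by 1.83 and 1.75, and Plaur by 0.79 and 1.89, while Areg rose in ELT3-245 (1.86) and stood at 0.38 in ELT3, where it was not called. Hmox1, the haem oxygenase gene, fell in ELT3 (-2.55) and ELT3-245 (-3.11), as did Plau (-0.62 and -0.88). Ccl2 fell in ELT3 (-0.88) and stood at 0.30 in ELT3-245, where it was not called. Known AP-1 targets stood on both sides in each comparison. The median response of the list was 0.38 in ELT3 and 0.38 in ELT3-245 (median sizes 0.45 and 0.50).

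**Figure D4:**
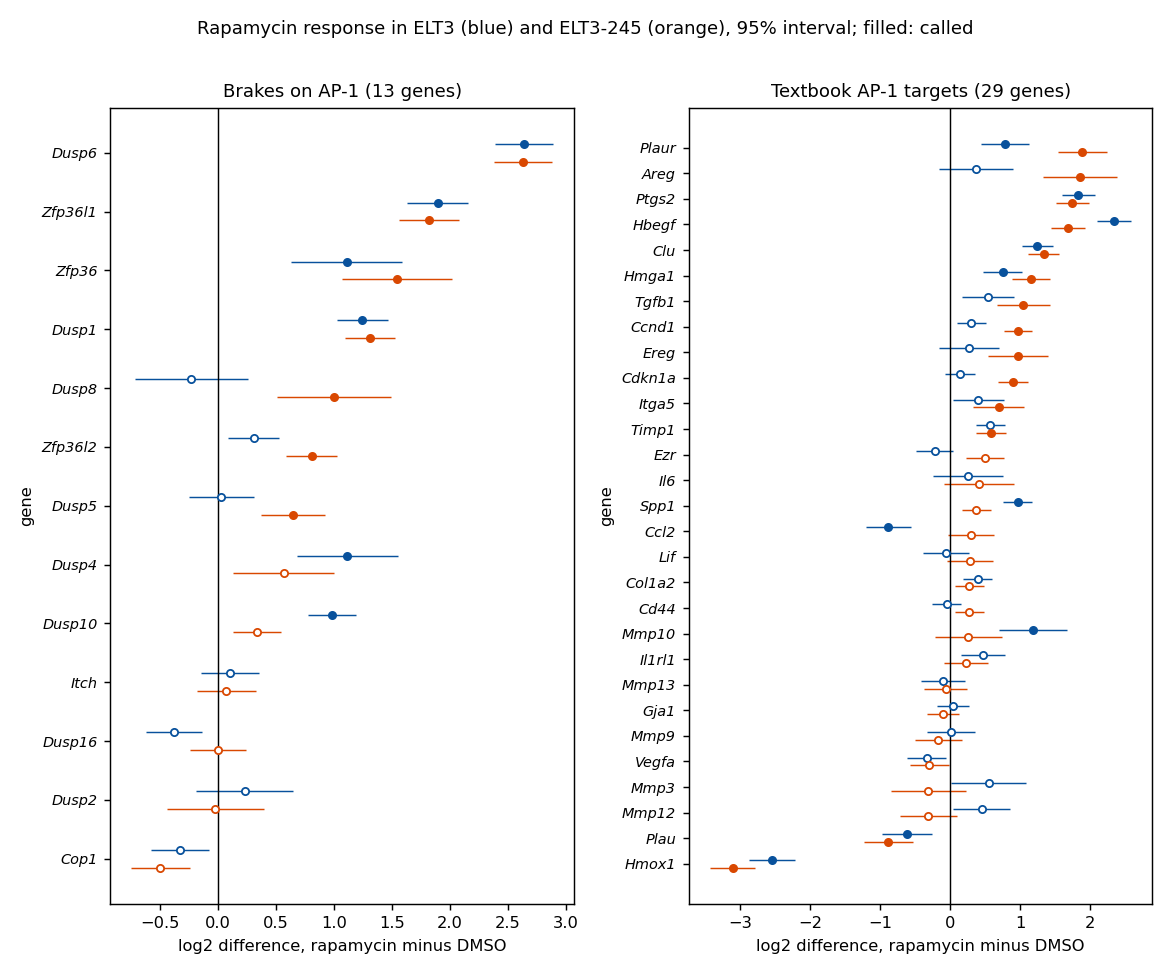
Log2 difference between rapamycin and DMSO (x axis) for 13 brakes on AP-1 and 29 textbook AP-1 targets (y axis) in ELT3 (blue) and ELT3-245 (orange), with 95% intervals, filled where called. Dusp6 lies at 2.64 and 2.63 in the lines, and Hmox1 is the furthest to the left (-2.55 and -3.11).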

How the data were processed

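RNA of 12 samples was run on rat Clariom S arrays. The deposited values are log2 signals, 1 for each of 23188 probe sets and array, made by the authors with RMA (background correction, normalization between arrays and summarization), per the labels; its version is not stated there. All 12 value columns matched a sample. Symbols come from the platform annotation: 15049 probe sets have 1 symbol, 0 have several and 8139 have none; the last were kept in every test. RefSeq names and promoters are of GRCr8; protein sequences were not used here, and coordinates of the probe sets are not given. The labelled treatment volumes, 10 µl of a 20 mM stock in 10 ml, would give 20 µM; the labelled dose of 20 nM is used in the text.

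limma 3.58.1 (R 4.3.3) was fitted to all arrays with a mean for each of the 4 groups (degrees of freedom: 8 residual, 3.91 prior), without a filter on dim probe sets. Calls need an adjusted p under 0.05 and 1.5-fold, the fold threshold of the study. Intervals are 95% intervals of that fit. An exact permutation test of 3 arrays against 3 cannot give a two-sided p under 0.1 and was not used. The number of arrays limits the precision.

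All 9 members are given in every comparison, with, from each of the 4 other lists, the 2 called genes with the largest change in each direction, and for each called member the 3 nearest probe sets. The members and lists were chosen with earlier results of these data known. Symbols without a probe set of that name were not analysed here.

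Alternatives were quantile normalization, median centring, an intensity trend, array weights, a per-gene unequal-variance test, the replicate number as a block, only bright or only named probe sets, only the groups compared, other fold thresholds, limma treat and leave-one-out fits. The fitting code was tested on simulated data. Python 3.11.15 with NumPy 2.4.6, pandas 2.3.3 and, for plots, Matplotlib 3.10.9 was used.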

Additional observations from a re-analysis of the deposited data

Results flagged for a closer look

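Of the members and the 78 related genes, 12 had rapamycin responses that differed between the lines by a test of the difference itself (the interaction of line and treatment in limma, over all probe sets; each value is the log2 response of ELT3-245 minus that of ELT3). Over all probe sets 4.23% were called in this test. Among the members these were Fosl1 (0.82, adjusted p = 0.0153) and Jund (0.88, adjusted p = 0.0252).

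Among the relatives Maf differed by -1.09 (adjusted p = 0.0147), and among the brakes Dusp10 by -0.64 (adjusted p = 0.0213).

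Of the textbook targets the urokinase receptor gene Plaur (1.11), the amphiregulin gene Areg (1.48), the chemokine gene Ccl2 (1.19), the cyclin gene Ccnd1 (0.67), Cdkn1a (0.76) and Ezr (0.72) had the more positive response in ELT3-245, and Hbegf (-0.66) and Spp1 (-0.59) the less positive one, with adjusted p from 0.00995 to 0.0391. On leaving out 1 array at a time, the call was lost in 11 of 12 fits for Hbegf (adjusted p up to 0.094), in 10 for Ezr (up to 0.0937) and Spp1 (up to 0.0662), in 8 for Areg (up to 0.0797), in 6 for Jund (up to 0.065) and in 3 for Dusp10 (without ELT3 in DMSO replicate 2 or ELT3-245 in rapamycin replicate 1 or 2, up to 0.0583). It was lost in no such fit for Fosl1, Maf, Plaur, Ccl2, Ccnd1 or Cdkn1a. Over these fits 4 to 6 of the targets were called, against 8 with all arrays.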

How the results depend on the processing

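Over the alternatives, 987 of the member values kept their direction and their side of the threshold, 30 were no longer called, 20 became called and 10 changed sign, all 10 of them in differences that were not called. The sign changes were for Fosb between the lines in DMSO (-0.02 without ELT3 in DMSO replicate 3 and -0.11 without ELT3-245 in DMSO replicate 1, range -0.11 to 0.25 on leaving out 1 array), for Fosb in the ELT3 response (-0.051 under quantile normalization, -0.055 under median centring, -0.036 with array weights, and -0.086 to 0.18 on leaving out 1 array, below 0 without ELT3 in DMSO replicate 2 or 3 or ELT3 in rapamycin replicate 3) and for Jun in the ELT3 response (-0.11 to 0.35 on leaving out 1 array, below 0 without ELT3 in DMSO replicate 1 or ELT3 in rapamycin replicate 2).

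The per-gene unequal-variance test called 1700 probe sets between the lines in DMSO, 1771 in rapamycin (2 members), 1339 for the ELT3 response (0 members, 4 at an unadjusted p under 0.05) and 809 for the ELT3-245 response (0 members, 6 at an unadjusted p under 0.05), against 3445, 3890, 3692 and 2465 in the limma fit. In DMSO it lost Fos (adjusted p = 0.213) and Atf3 (0.0731). A fold threshold of 2 called 1703, 1781, 1198 and 789 probe sets in the same order (1 member in the ELT3 response), and 449 against 981 for the difference between the responses (0 members, 3 at an unadjusted p under 0.05). No fold threshold called 5865 probe sets (4 members) for ELT3 and 4176 for ELT3-245. limma treat called 1471, 1522, 902 (0 members, 2 at an unadjusted p under 0.05), 491 (1 member) and 72 (0 members, 0 at an unadjusted p under 0.05). With only probe sets at or above the median signal, 1 member was called in the ELT3 response, since Maff was not tested. That setting called 2671 probe sets between the lines in DMSO, 3130 in rapamycin, 3278 and 2248 for the responses of ELT3 and ELT3-245, and 1300 for their difference. The share called was thus higher among these brighter probe sets than over all. Leaving out 1 array at a time gave 534 to 893 probe sets and 1 to 2 members for the difference between the responses. Beyond fewer arrays or a stricter rule, the cause was not tested. The call for Atf3 in this difference was gained with an intensity trend, with the replicate block (adjusted p = 0.0469), with only bright and with only named probe sets (adjusted p from 0.0192 to 0.0469).

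The replicate number as a block left 6, 4, 2 and 3 members called in the first 4 comparisons (3434, 3884, 3691 and 2469 probe sets) and 3 members (825 probe sets) in the difference; among related genes it lost Ddit3 and Srf between the lines in DMSO (adjusted p = 0.0527 and 0.0581) and Hbegf in the difference (0.0663). Same-numbered arrays of different groups correlated in their deviations at -0.124 to 0.215 over 18 pairs, 4 of them over 0.1. With 3 arrays a group, such correlations cannot tell whether the numbers pair the samples. The planned use of another probe set of a member could not be run, since each member has 1. Fos, Fosb and Maff had overall means under the median probe set. Their standard errors for a difference between groups (0.16 to 0.18) were below those of Jun and Junb (0.21 and 0.22). They were above those of the other brighter members, Fosl1 (0.11), Jund (0.13), Fosl2 (0.15) and Atf3 (0.15).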
